A study of Xenopus laevis with 16 samples.

Results

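The Eph receptors and ephrins of Xenopus laevis embryos were followed on 2-colour oligonucleotide arrays after depletion of the POUV proteins, the frog homologs of the mammalian transcription factor Oct4. Members were the probes named XEK or pag, those with a gene name beginning in eph or efn, and those described as ephrin or Eph receptor. These criteria selected 11 of 21495 probes. Of these, ephx2-prov (epoxide hydrolase) and AY902238 (nephrin) shared only the letters and were set aside, which left 9 probes with 1 probe per gene. They comprised the EphA receptors pag, epha2-A and BG264185 (an expressed sequence tag similar to chick EphA3), the receptor tyrosine kinase XEK, whose Eph class the array annotation does not give, the EphB receptor ephB4a, the A-type ephrins efna3-prov and efna2-prov, and the B-type ephrins efnb1-A and efnb3-A. In the RefSeq gene table of assembly v10.1, pag is a synonym of epha4 (and of the unrelated prdx1 and pag1, but the array describes a receptor tyrosine kinase), and 6 of the 9 members had a matching gene name. The probe named efna2-prov is in doubt, since its description names a non-POU octamer-binding protein and not an ephrin.

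Eph receptors are receptor tyrosine kinases whose ligands, the ephrins, sit on the membrane of neighbouring cells, so that signalling needs contact between cells. A-type ephrins are held by a lipid anchor and B-type ephrins span the membrane and can themselves signal into the cell that carries them. EphA receptors bind mainly A-type ephrins and EphB receptors mainly B-type ephrins, while EphA4 binds both. In vertebrate embryos they are known for cell sorting and for keeping tissue boundaries apart, and in Xenopus for the separation of germ layers during gastrulation.

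Embryos had been injected in both blastomeres at the 2-cell stage with 60 ng per blastomere of either the Control-MO or PVD2, a mixture of morpholinos against the 3 POUV genes Xlpou25, Xlpou60 and Xlpou91. RNA was prepared from intact embryos and from animal caps (prospective ectoderm) that had been dissected at stage 8 and cultured alone. Both were collected at stage 9 (late blastula) and stage 10 (early gastrula), with 3 embryos or 25 caps pooled per sample. The 8 combinations were Control-MO or PVD2, in embryos or caps, at stage 9 or stage 10, each with 2 biological replicates. No uninjected embryos were among the samples analysed here. Scanner output was used for 15 arrays, since that of PVD2 caps at stage 10, replicate 2, was not analysed here, and this group entered the fit with 1 array that was assumed to vary like the others. Each sample was labelled with Cy3 and hybridized with a Cy5-labelled common reference, whole embryo RNA pooled over many stages. A level below is the log2 ratio of sample over reference, which ranks arrays for a given probe but not probes against each other.

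Of all probes, 49.95% to 63.6% were well above background on an array, fewest in the Control-MO embryos at stage 9. The whole embryo arrays were dimmer (median net Cy3 of 17.6 to 34.8) than the cap arrays (60.8 to 67.2), and the tissues lay on separate slides that were scanned on separate days. The array of PVD2 embryos at stage 10, replicate 2, stood apart in the spread of its log2 ratios, with a median absolute value of 0.0185 against 0.0875 to 0.233 on the others. The next lowest were control caps at stage 9, replicate 1 (0.0875), and PVD2 embryos at stage 9, replicate 2 (0.0983). The remaining arrays had 0.168 to 0.233. The 1 probe named for a targeted gene, xoct-91, lay between −3.51 and −1.38 at stage 9 and between −0.23 and 0.60 at stage 10, and was not different in PVD2 by the test (mean difference 0.07 ± 0.17 (SE), adjusted p = 1.00 by limma). A morpholino need not alter the level of its target transcript, so this does not check the labels. In control caps at stage 10, all 11 probes found for 10 mesendoderm genes were lower than in control embryos, 8 of them past the test (1.32% of all probes), with a median difference of −3.07.

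Called means an adjusted p below 0.05 in limma over all probes. On average over both tissues and stages, 1 of the 9 members, XEK, was called lower in PVD2, against 0.336% of all probes called lower and 0.387% called in either direction. At an unadjusted p below 0.05 there were 3 (XEK, pag and efna3-prov) against 4.22% of all probes. Between stages 9 and 10 of the Control-MO samples, 1 member, pag, was called higher, against 0.783% of all probes. Between Control-MO caps and embryos, 3 members, XEK, ephB4a and efnb1-A, were called lower in caps, against 3.24% of all probes. Of the 9 members, 7 exceeded background clearly on each of the 15 arrays. The probes efnb3-A, an ephrin-B gene, and BG264185 were not well above background on any array (net Cy3 of 3.91 to 36.6 and of 5.41 to 34.8), and no fold is given for either. Among the 7 that were measured, the median difference was −0.12 for PVD2, −0.04 for stage and −0.43 for tissue, beside medians over all probes of 0.01, −0.01 and −0.00. The plot of member effects shows these differences with their intervals.

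**Figure D1:**
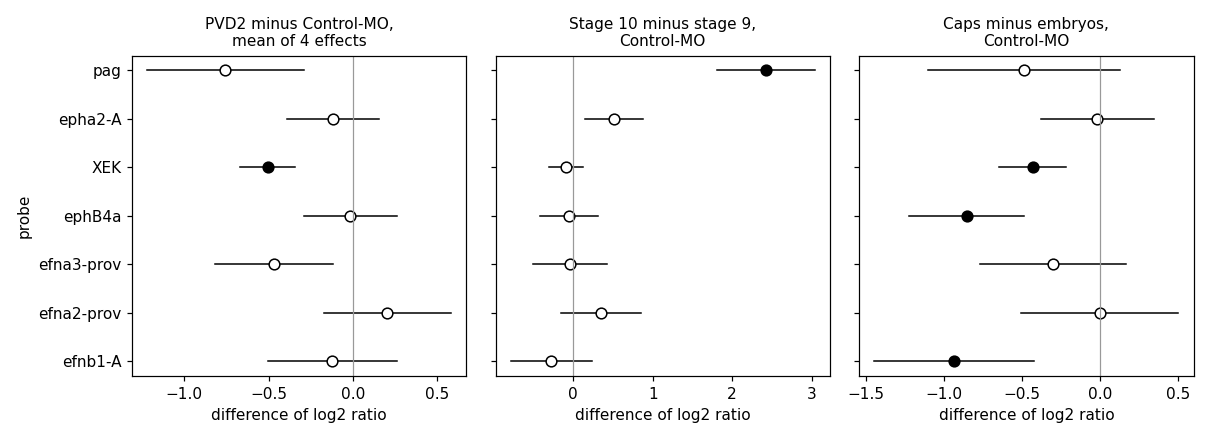
PVD2 effect averaged over the 4 combinations of tissue and stage, stage effect and tissue effect (the last 2 in Control-MO samples) for the 7 members well above background, as differences of the log2 ratio of sample over reference. Points are limma estimates and bars their 95% confidence intervals. Filled points passed an adjusted p of 0.05 over all probes, which held for XEK (−0.51) under PVD2, for pag (2.42) with stage and for XEK (−0.43), ephB4a (−0.86) and efnb1-A (−0.94) with tissue.

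The gene pag, which encodes EphA4, varied most with stage. In the Control-MO embryos its level was −1.67 and −1.31 at stage 9 and 0.85 and 0.96 at stage 10. The value of −1.31 rests on 1 spot, since the other of the 2 was left out as an outlier. In the Control-MO caps the level of pag was −1.51 and −2.50 at stage 9 and 0.70 and 0.18 at stage 10. Every stage 10 array lay above every stage 9 array, whatever the tissue or morpholino, a pattern that 0.441% of all probes and 0.977% of the probes well above background throughout shared. Net Cy3 was 36.0 to 114.7 at stage 9 and 578 to 1012 at stage 10. The stage difference in Control-MO samples was 2.42 ± 0.27 (SE, 95% confidence interval 1.80 to 3.04, 4 arrays per stage), or 5.36-fold, with an adjusted p of 0.00291 by limma. It was 2.39 in embryos (adjusted p = 0.0292) and 2.45 in caps (adjusted p = 0.0335), where 0.437% and 0.21% of all probes were called higher. The call over both tissues was kept with any 1 array left out (2.17 to 2.67) and in 15 of 16 processing alternatives, and was lost after scaling between arrays (adjusted p = 0.0682). Those within embryos and within caps were kept in 7 and 5 of 15 fits with 1 array left out (adjusted p up to 0.211 and 0.327), and some of the arrays whose removal ended them belonged to neither group compared. The difference between these stage effects was 0.05 ± 0.54 (SE), with an interval of −1.18 to 1.29 that leaves room for a sizeable difference either way.

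In PVD2 samples pag was also low at stage 9 and higher at stage 10. It was −2.88 and −1.88 in embryos and −2.93 and −2.78 in caps at stage 9, and −0.18 and 0.07 in embryos and 0.11 in caps at stage 10. The stage difference was 2.33 in PVD2 embryos (adjusted p = 0.0488, 0.27% of all probes called higher) and 2.96 in PVD2 caps, where 1 array stood for stage 10 and the test was not passed (adjusted p = 0.0948, 0.0186% of all probes called higher). The call in PVD2 embryos was kept in 3 of 15 fits with 1 array left out (1.83 to 2.83, adjusted p up to 0.238). In the 7 pairs of arrays that shared a slide and a morpholino, pag was higher at stage 10 by 1.96 to 3.04. The size of the step depended on the processing, and the log ratio of the Feature Extraction software gave 3.69 for the Control-MO samples.

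Within each of the 4 combinations of tissue and stage, the PVD2 arrays lay below the Control-MO arrays for pag. This held for 2 of the 9 members, pag and XEK, and for 0.774% of all probes (1.44% of those well above background throughout). The differences of PVD2 from Control-MO were −0.89 in embryos and −0.85 in caps at stage 9, and −0.96 in embryos and −0.33 in caps at stage 10. Signal at stage 9 was dim. In replicate 2 of the stage 9 embryos, net Cy3 of pag was 39.4 with PVD2 and 36.0 with Control-MO, the latter from 1 spot. The Cy5 reference signal of pag was 1461 and 467 on these arrays, whose median net Cy3 over all probes was 27.1 and 17.6. Within each of the 7 slide pairs pag was lower in PVD2, by 0.28 to 1.42, as were XEK and efna3-prov (2.18% of all probes, 3.67% of those well above background throughout). The pair with 1.42 was caps at stage 9, replicate 1, where signal was also dim. There net Cy3 of pag was 54.8 with PVD2 and 61.2 with Control-MO, and its Cy5 reference signal 1050 and 1087. In the authors' values (log2) these arrays were closer, at 7.04 and 7.36. The mean difference was −0.76 ± 0.20 (SE, 95% interval −1.22 to −0.29), with an unadjusted p of 0.00516 and an adjusted p of 0.40 by limma, so it did not pass the test. It passed in 5 of 16 alternatives, such as the authors' processed values of all 16 arrays (−0.99, adjusted p = 0.00375). The pag probe is in a list of POUV-responsive probes that the study drew from these same arrays, so its lower level here is no independent evidence.

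**Figure D2:**
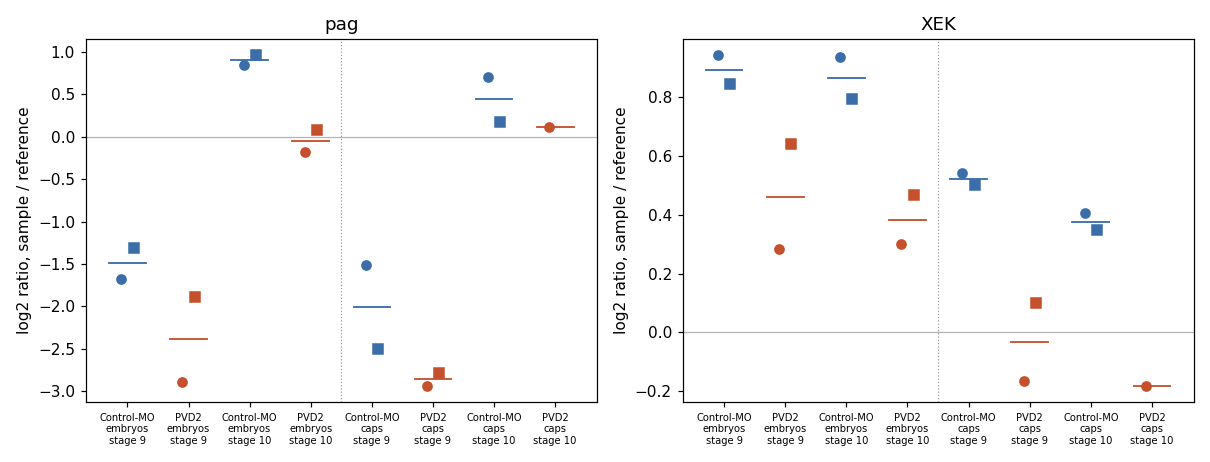
Log2 ratio of sample over reference for pag and XEK on each of the 15 arrays, with Control-MO in blue and PVD2 in red. Circles are replicate 1, squares replicate 2 and bars the group means. For pag the stage 9 arrays (−2.93 to −1.31) lie below all stage 10 arrays (−0.18 to 0.96). For XEK each red group lies below its blue neighbour while both stages are at like levels.

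The level of pag was lower in Control-MO caps than in embryos by 0.49 ± 0.27 (SE), which did not pass the test (adjusted p = 0.337) but did in 6 of 16 alternatives. The probes with a gene symbol whose levels ran most like those of pag over the 15 arrays were wnt-2-prov (Pearson r = 0.98), named for a Wnt ligand, cnn2-prov (0.92), the calponin 2 gene, sa2-A-prov (0.92), a cohesin subunit, xom-A (0.92), which encodes a homeodomain repressor of dorsal genes downstream of BMP, and prdm1-prov (0.91), which encodes the transcriptional repressor Blimp1. They were taken from the 1595 named probes measured above background throughout. All of these points share the reference and fall into 2 clusters by stage, so r mostly reports the step between stages.

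The other EphA receptor measured, epha2-A, had a smaller step in the same direction. Its level in Control-MO samples was 0.17 and −0.21 in embryos and 0.03 and 0.01 in caps at stage 9. At stage 10 it was 0.58 and 0.50 in embryos and 0.44 and 0.51 in caps, so that the stages did not overlap (2.06% of all probes were likewise higher at stage 10 without overlap, and 3.1% of those well above background throughout). The difference was 0.51 ± 0.16 (SE), or 1.42-fold, which did not pass the test over all probes (adjusted p = 0.216). It was above 0 in all 7 slide pairs, by 0.22 to 0.71, as in 6.66% of all probes and 12.5% of those well above background throughout. Under PVD2 the mean difference was −0.12 ± 0.12 (SE) and its sign varied among the slide pairs, with 5 lower and 2 higher. The tissues differed by −0.02 ± 0.16 (SE). Over the 15 arrays epha2-A was the member closest to pag (r = 0.84).

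The receptor tyrosine kinase gene XEK was the member called lower after POUV depletion. In embryos its level was 0.94 and 0.85 with Control-MO against 0.28 and 0.64 with PVD2 at stage 9. At stage 10 the embryos measured 0.94 and 0.80 with Control-MO against 0.30 and 0.47 with PVD2. In caps it was 0.54 and 0.50 against −0.17 and 0.10 at stage 9, and 0.41 and 0.35 against −0.18 at stage 10. In none of the 4 combinations did the PVD2 arrays overlap the Control-MO arrays. The mean difference was −0.51 ± 0.07 (SE, 95% interval −0.67 to −0.35), a 1.42-fold lower level, with an adjusted p of 0.0273 by limma.

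The separate effects on XEK lay close together in the main fit, where caps at stage 10 had 1 PVD2 array. In the authors' values (log2) that array was at 11.29 and the second of its group at 11.71, against 11.88 and 11.89 with Control-MO. In the main fit the effects were −0.43 in embryos and −0.56 in caps at stage 9, and −0.48 in embryos and −0.56 in caps at stage 10. None of these passed on its own (adjusted p from 0.831 to 1.00). Of the 9 members 0 were called in any of the 4 comparisons, in which 0% to 0.0279% of all probes were. At an unadjusted p below 0.05 there were 2 members in embryos at either stage and 1 in caps at either stage, against 1.38% and 2.98% of all probes in embryos and 2.61% and 1.64% in caps at stages 9 and 10. The effect in caps minus that in embryos was −0.10 ± 0.14 (SE, 95% interval −0.42 to 0.22), and the effect at stage 10 minus that at stage 9 was −0.03 ± 0.14 (SE, 95% interval −0.35 to 0.30). Within slides the log2 ratio of XEK was lower in all 7 pairs, by 0.21 to 0.71, and with the slide as a block the mean difference was −0.50 (adjusted p = 0.0345, 0.975% of all probes called). In replicate 2 of the embryos its net Cy3 was higher with PVD2, 471 against 353 at stage 9 and 598 against 442 at stage 10. The Cy5 reference signal of XEK was higher there too, 804 against 518 and 1020 against 834. In the other pairs net Cy3 was lower with PVD2.

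The call of XEK was near the threshold. It was lost when any 1 of the 8 Control-MO arrays was left out (adjusted p from 0.0639 to 0.103), and also without replicate 1 of PVD2 embryos at stage 10 (0.0629), of PVD2 caps at stage 9 (0.0639) or of PVD2 caps at stage 10 (0.0632). The last was the only array of its group, so the mean then covered the 3 remaining combinations of tissue and stage. The difference itself moved little in these fits and stayed between −0.55 and −0.46, and without the array that stood apart in its spread it was −0.53 (adjusted p = 0.0406). It was −0.25 (adjusted p = 0.903) when arrays were centred on their median in place of loess, and 0.03 (adjusted p = 0.99) when the log ratios were scaled to equal spread between arrays, which divided the array that stood apart by 0.117.

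**Figure D3:**
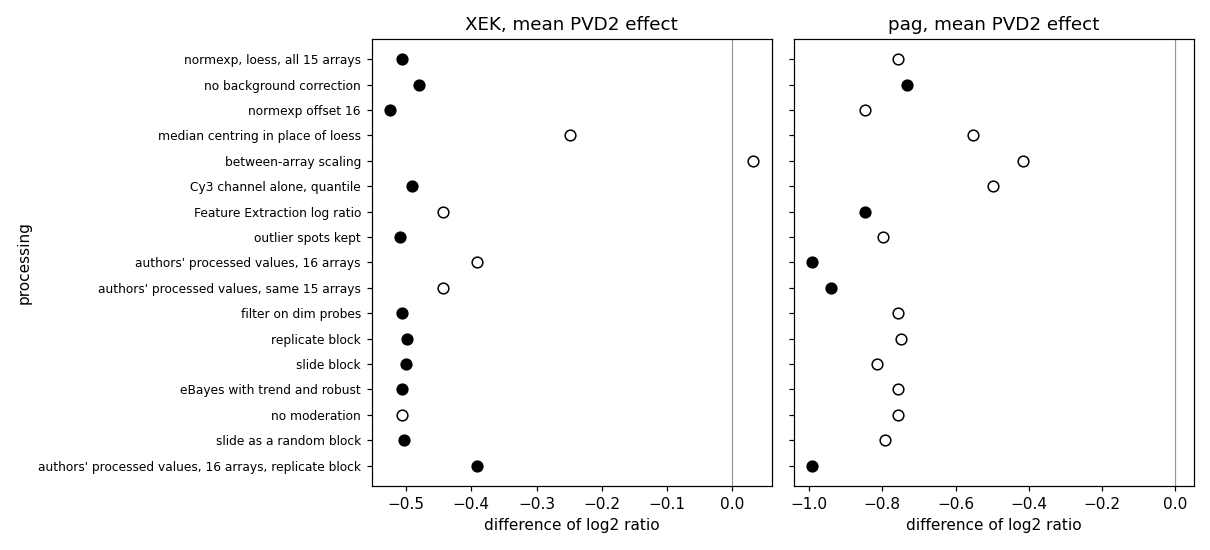
Mean PVD2 effect on XEK (left) and pag (right) as a difference of log2 ratios under each processing, from top to bottom. Filled points passed an adjusted p of 0.05 over all probes. XEK passed in 10 of the 16 alternatives and lay near 0 (0.03) after scaling between arrays, and pag passed in 5 of 16 and stayed below 0 in all of them.

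Both stages showed like levels of XEK in Control-MO samples (difference −0.09 ± 0.09 (SE), adjusted p = 0.863). Its level was lower in caps than in embryos, by 0.43 ± 0.09 (SE, adjusted p = 0.0284) in Control-MO samples, and the 7 cap arrays did not overlap the 8 embryo arrays within either morpholino. This held for 3 members, XEK, ephB4a and efnb1-A, and for 3.63% of all probes (6.05% of those well above background throughout). In Control-MO arrays alone efna3-prov was likewise lower without overlap, against 6.86% and 8.43%. The Cy3 channel taken alone showed no such difference for XEK (−0.00), and its Cy5 reference signal was 2385 to 3209 on the control cap arrays and 518 to 1542 on the control embryo arrays. The named probes closest to XEK were cenpe-A (r = 0.90), a mitotic kinesin gene, Xgsk-3 (0.86), the gene of the kinase that marks beta-catenin for breakdown, cg8286-prov (0.86), described as a DnaJ family gene, taf5l-prov (0.83), a cofactor of RNA polymerase II, and ppp1r11-prov (0.82), an inhibitory subunit of protein phosphatase 1. Among the members efna3-prov ran closest to XEK (0.83). Here too the points share the reference and fall into the 8 groups, so r also reports differences between groups.

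The EphB receptor ephB4a was lower in caps and was not called under PVD2. In Control-MO embryos its level was 0.33 and 0.88 at stage 9 and 0.24 and 0.70 at stage 10. In Control-MO caps it was −0.09 and −0.57 at stage 9 and −0.33 and −0.28 at stage 10, below every embryo array. In PVD2 samples it was 0.39 and 0.38 at stage 9 and 0.50 and 0.19 at stage 10 in embryos, and −0.35 and −0.26 at stage 9 and −0.04 at stage 10 in caps. The tissue difference in Control-MO samples was −0.86 ± 0.16 (SE), 1.81-fold lower in caps, with an adjusted p of 0.0166. The mean difference with PVD2 was −0.02 ± 0.12 (SE, 95% interval −0.29 to 0.26), and the sign varied among the slide pairs, with 3 lower and 4 higher.

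The ephrin-A gene efna3-prov encodes a lipid-anchored ligand. Its level in embryos was −0.14 and −0.11 with Control-MO against −1.02 and −0.29 with PVD2 at stage 9, and −0.20 and −0.07 against −0.996 and −0.13 at stage 10. In caps it was −0.27 and −0.52 against −1.06 and −0.91 at stage 9, and −0.49 and −0.45 against −0.80 at stage 10. The groups overlapped only in embryos at stage 10, and the share of all probes with this pattern was not computed. The overlapping PVD2 value, −0.13, came from the array that stood apart in its spread. The PVD2 value of −0.29 at stage 9 also came from an array of low spread (median absolute log2 ratio 0.0983). The PVD2 embryos differed widely between replicates. The mean difference of −0.47 ± 0.15 (SE, 95% interval −0.82 to −0.12) did not pass the test (adjusted p = 0.697), and it passed in 6 of 16 alternatives, among them the Cy3 channel alone (−0.59, adjusted p = 0.00636). In each slide pair it was lower in PVD2, by 0.06 to 0.88. The stage difference in Control-MO samples was −0.04 ± 0.20 (SE) and the tissue difference −0.30 ± 0.20 (SE), neither past the test.

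The probe efna2-prov, of doubtful identity, ran from −1.18 to 0.28 over the arrays and was not called in any comparison. Its mean difference with PVD2 was 0.20 ± 0.17 (SE), its stage difference 0.35 ± 0.22 (SE) and its tissue difference −0.00 ± 0.22 (SE). On both Control-MO embryo arrays at stage 9, 1 of its 2 spots was left out as an outlier.

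**Figure D4:**
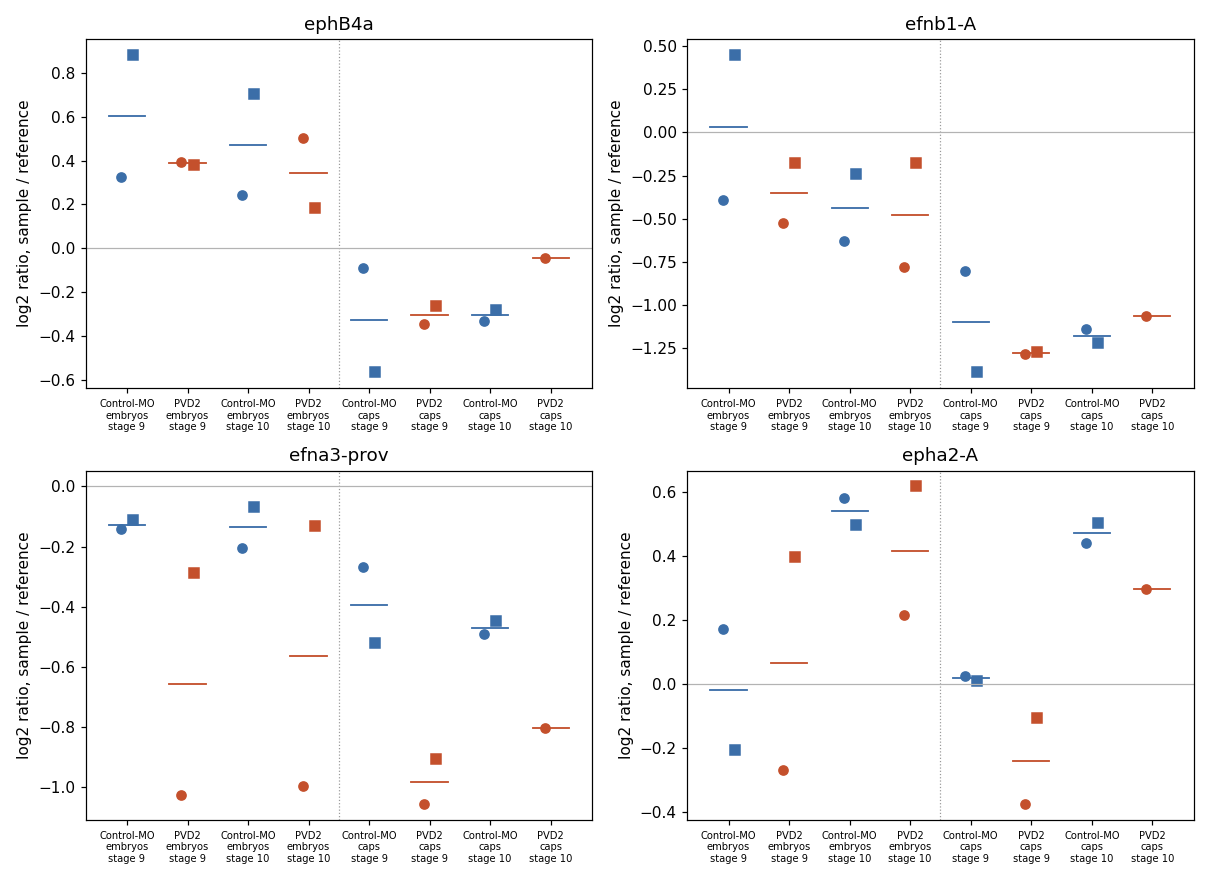
Log2 ratio of sample over reference on each of the 15 arrays for ephB4a, efnb1-A, efna3-prov and epha2-A, with Control-MO in blue and PVD2 in red, circles for replicate 1, squares for replicate 2 and bars for group means. For ephB4a and efnb1-A the caps, right of the dotted line, lie below the embryos of the same morpholino. For efna3-prov most PVD2 arrays lie below their controls, and for epha2-A the Control-MO arrays of stage 10 (0.44 to 0.58) lie above those of stage 9 (−0.21 to 0.17).

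The transmembrane ligand gene efnb1-A, encoding ephrin-B1, was also lower in caps. In Control-MO embryos its level was −0.39 and 0.45 at stage 9 and −0.63 and −0.24 at stage 10. In Control-MO caps it was −0.80 and −1.39 at stage 9 and −1.14 and −1.22 at stage 10, below all embryo arrays, with the embryos of stage 9 far apart from each other. In PVD2 samples it was −0.52 and −0.18 at stage 9 and −0.78 and −0.18 at stage 10 in embryos, and −1.29 and −1.27 at stage 9 and −1.07 at stage 10 in caps. The tissue difference in Control-MO samples was −0.94 ± 0.22 (SE), 1.91-fold lower in caps, with an adjusted p of 0.0407. The mean difference with PVD2 was −0.12 ± 0.17 (SE, 95% interval −0.51 to 0.26).

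The 3 tissue calls rest on 2 slides per tissue, and tissue cannot be told apart from slide and scan day. With the slide as a random block none of the 3 passed (adjusted p of 0.0685 for ephB4a, 0.0562 for efnb1-A and 0.114 for XEK, 3.7% of all probes called). The call of XEK was lost without any 1 of the 8 control arrays (adjusted p from 0.0552 to 0.0985). The call of ephB4a was lost without replicate 2 of control embryos at either stage, replicate 2 of control caps at stage 9 or either control cap array of stage 10 (0.0529 to 0.0629, differences of −0.87 to −0.72). The call of efnb1-A was lost without any of these 5 arrays, replicate 1 of control embryos at stage 10, or any PVD2 array of stage 9 (0.0572 to 0.137, differences of −1.03 to −0.73). The Cy3 channel alone gave larger differences for ephB4a (−2.27) and efnb1-A (−1.87). In whole embryos and explants alike, fewer cells that carry a transcript and less of it per cell cannot be told apart. The mesendoderm markers were lower in control caps, as were these 3 genes, and their part in the result was not tested.

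For none of the 9 members did the PVD2 effect differ between tissues or between stages past the test (adjusted p = 1.00 throughout), and 0% of all probes did in these comparisons (unadjusted p below 0.05 for 0 of the 7 measured members in both, against 0.676% of all probes between tissues and 1.37% between stages). The plot of within-slide pairs shows that pag, XEK and efna3-prov lay below 0 in every pair, while the other 4 members had pairs on both sides.

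**Figure D5:**
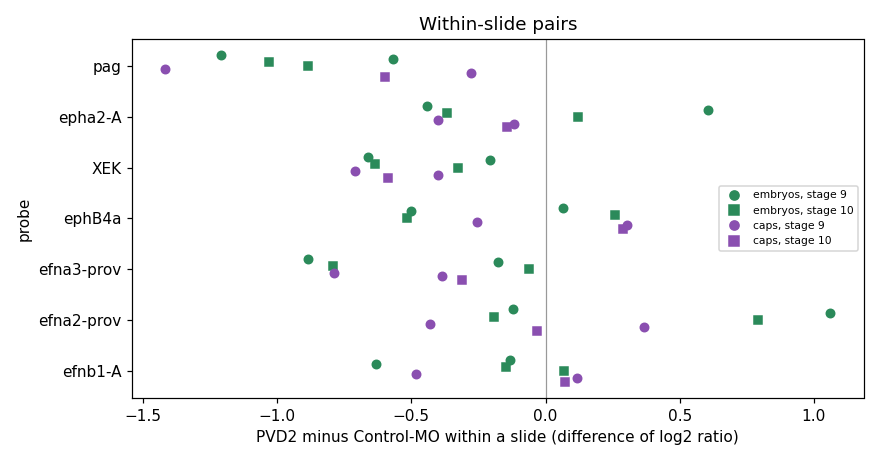
Difference of log2 ratio, PVD2 minus Control-MO, in the 7 pairs of arrays that shared a slide, for the 7 members well above background. Green points are whole embryos, purple points caps, circles stage 9 and squares stage 10. All pairs are below 0 for pag (−1.42 to −0.28), XEK (−0.71 to −0.21) and efna3-prov (−0.88 to −0.06).

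Genes that act with Eph receptors and ephrins were sparsely covered, with 18 probes for 17 of 63 listed genes. None was called under PVD2 (0.387% of all probes were), and their median difference was −0.05. Between stages, 1 was called higher in Control-MO samples, sh2d3c-prov (1.49 ± 0.28 (SE), adjusted p = 0.0285), an adaptor that binds Eph receptors, where 0.783% of all probes were called higher. That call was kept in 5 of 15 fits with 1 array left out (adjusted p up to 0.133), and those that follow were kept in all 15. The calls that follow compare tissues, and leaving out 1 array does not separate tissue from slide and scan day. Between tissues, both probes of flrt3, a membrane protein that acts in cell adhesion, were lower in caps (flrt3 −4.31 ± 0.41 and LOC503672 −3.77 ± 0.32, SE), where 3.24% of all probes were called lower. The probe stat3-A, for a transcription factor activated by cytokine receptors, was higher in caps (0.82 ± 0.14 (SE), adjusted p = 0.0117), where 4.33% of all probes were called higher. The remaining probes, among them those for the Src-family kinases fyn and src, the adaptors grb2 and nck2, the GTPase rac1 and the ephrin-cleaving protease adam10, were not called in any of the 3 comparisons.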

How the data were processed

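Samples were grouped by their labels, which give morpholino, tissue, stage and replicate. The array scans had been quantified with the software Feature Extraction 9.5.1.1. From its deposited output, which is not normalized between arrays, the intensity of each spot (mean signal) and of its surround (median local background) were taken. The log10 ratios deposited per spot (background subtracted and dye normalized by the scanner software) and the authors' table of processed log10 values of 16 arrays served only as alternatives, converted to log2. How that table was computed is not given in the sources used here.

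Normexp (offset 50) removed the background, and loess normalization of every array gave the log2 ratio of Cy3 sample over Cy5 reference. Values of both spots of a probe were averaged after removal of outlier spots and of 1417 control spots. With limma 3.58.1 (R 4.3.3, statmod 1.5.0) a mean was fitted for each of the 8 groups, followed by eBayes and Benjamini-Hochberg adjustment over all probes at 0.05. The residual degrees of freedom were 7. The number of arrays limits the precision. The procedure was tested on simulated data with noise drawn independently for each array. That test therefore does not cover correlation between arrays of a shared slide.

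Each slide held 1 tissue and 1 replicate number. Deviations from group means correlated between same-numbered groups in 9 of 9 pairs on a shared slide (r of 0.47 to 0.88) and above 0.1 in 10 of 12 pairs on different slides (r of −0.37 to 0.66). The numbers thus pair arrays within a tissue, and slide and replicate blocks were run as alternatives. The others were an offset of 16, uncorrected background, median centring, scaling between arrays, Cy3 alone, the deposited ratios and table, outlier spots kept, a filter on dim probes, trend and robust eBayes, no moderation, and each array left out. The slide as a random block was not planned, and for tissue it also stood in for the slide block. For tissue these alternatives were thus the same fit, and the authors' table entered the alternatives in several forms. Averaging probes of a gene was not run, since each member has 1 probe.

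Every member was described, with full values for pag, XEK and members called or close to them. The probes most like pag and XEK were the 5 named probes of highest r. The members and lists were chosen with earlier results of these data known. Probe annotation is that of the array design, and gene names were matched to the RefSeq table of assembly v10.1.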

Additional observations from a re-analysis of the deposited data

Results flagged for a closer look

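No group held enough arrays for a test of single outlying samples, and no difference of an effect between tissues or stages was singled out. The array of PVD2 caps at stage 10, replicate 2, enters no main comparison and was read from the authors' table, on a log2 scale of their own processing. There efna2-prov, at 15.56, lay above both control cap arrays of stage 10 (15.30 and 15.50), and efnb1-A, at 10.05, lay above the lower of its controls (10.01) and level, at this rounding, with the higher (10.05). On the same array pag (11.16 against 11.59 and 12.19), XEK (11.71 against 11.88 and 11.89), efna3-prov (10.97 against 11.06 and 11.11) and ephB4a (11.23 against 11.30 and 11.34) lay below both controls, and epha2-A (13.65) lay between them.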

How the results depend on the processing

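Counts of members called depended on the processing. For the mean PVD2 effect the count was 1. It was 3 without background correction and with the authors' 16 arrays and a replicate block (chosen after seeing the data), 2 with Cy3 alone, the Feature Extraction log ratio and the authors' values of 16 or 15 arrays, and 0 with median centring, scaling between arrays or no moderation. Leaving out 1 array gave 0 to 1. For stage (1 member) it was 2 without background correction, with Cy3 alone and with the authors' 16 arrays and replicate block, 0 with scaling (pag, adjusted p = 0.0682), and 1 without any 1 array. For tissue (3 members) it was 0 with median centring, scaling and the slide as a block, 1 without moderation, and 0 to 3 with 1 array left out. It was 0 without replicate 2 of control embryos at stage 9 or 10, replicate 2 of control caps at stage 9 or either control cap array at stage 10. For the single PVD2 effects (0 members) the Feature Extraction ratio and the authors' values of 16 arrays, with or without the replicate block, and of 15 arrays gave 2, pag and the dim probe efnb3-A. With the replicate number as a block on the values processed here, the counts were 1 for PVD2, 1 for stage and 3 for tissue, no call changed, and 151 of all probes were called for PVD2 in place of 83. Over the other alternatives the probes called numbered 1 (median centring) to 956 (authors' 16 arrays with the replicate block) for PVD2, and at the same extremes 17 to 2609 for stage (549 as reported) and 154 to 7871 for tissue (1624 as reported).

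Signs turned mostly for differences near 0. After median centring the mean PVD2 effect was 0.23 for ephB4a, 0.17 for epha2-A and 0.0918 for efnb1-A, and the stage effect 0.13 for ephB4a, 0.15 for efna3-prov and 0.13 for XEK. After scaling between arrays the PVD2 effect was 0.19 for ephB4a, 0.57 for epha2-A and 0.0323 for XEK, the only called value that turned, and the stage effect 0.0400 for efna3-prov. The PVD2 effect of ephB4a was 0.00527 with the Feature Extraction ratio and 0.00548 with the authors' 15 arrays, and the stage effect of efna3-prov 0.0192 without background correction. The tissue effect of efna2-prov turned to 0.0613 with an offset of 16, 0.0626 with Cy3 alone, 0.0592 with the Feature Extraction ratio and 0.0636 with each form of the authors' values, that of efna3-prov to 0.0851 with Cy3 alone, and that of epha2-A to 0.000344 with an offset of 16. With 1 array left out, the PVD2 effect of ephB4a ran from −0.11 to 0.0545, its stage effect from −0.19 to 0.0841, the stage effect of efna3-prov from −0.10 to 0.0212, and the tissue effects of efna2-prov from −0.19 to 0.19 and of epha2-A from −0.11 to 0.0786. The causes were not tested. Signal limits efnb3-A and BG264185, which were not well above background, and the stage 9 levels of pag.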
